A study of Mus musculus with 37 samples.

Results

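The genes of the proteasome were examined in uterine NK (uNK) cells, the NK cells of the pregnant mouse uterus. Members were all protein-coding genes whose mouse symbol starts with Psma, Psmb, Psmc, Psmd, Psme, Psmf or Psmg, without those ending in -ps, and the rule gave 50 of the 53700 genes counted (21878 protein-coding). The rule uses symbols and no expression value, but it was chosen with earlier results of these data known. The data are bulk RNA-seq counts from 37 libraries in 5 groups, taken at gestation day 9.5 to 10.5. Cells were sorted as live CD45+ NKp46+ cells that lacked CD3, CD4, CD8 and high CD11b, among other markers, and were then split by the inhibitory receptors NKG2A and Ly49C/I, which recognize MHC class I molecules and through which NK cells are educated. WT C57BL6 mice gave 9 uneducated libraries (cells negative for both receptors), 9 NKG2A+ libraries and 6 Ly49C/I+ libraries. NKG2A KO C57BL6 mice gave 8 uneducated and 5 Ly49C/I+ libraries. Cells with both receptors were not collected. All mice were pregnant, and in KO mice NKG2A is absent from every cell, not from NK cells alone. The labels do not say whether each library came from a separate mouse, so p-values measure the spread between libraries.

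The proteasome breaks down proteins that carry a ubiquitin chain. Its 20S core is a barrel of alpha rings, which form the gate, around beta rings, which hold the cutting sites. The 19S cap has a base of ATPases, which unfold the substrate, and a lid, which takes off ubiquitin. After interferon, and constantly in many lymphocytes, the catalytic subunits encoded by Psmb5, Psmb6 and Psmb7 are replaced by those of Psmb8, Psmb9 and Psmb10, which gives the immunoproteasome. The PA28 activator, made of the Psme1 and Psme2 products, is also interferon-inducible, and both changes favour peptides that bind MHC class I.

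By the main test (edgeR), several constitutive proteasome genes were lower in educated than in uneducated cells in both genotypes. Psmb9, Psmb10, Psme1 and Psme2 passed this test in no comparison. Psmb8, the other immunoproteasome gene, was lower in NKG2A+ cells, and Psme3, another activator gene, in Ly49C/I+ cells of KO mice. Whether these sets of genes differ in their response was not tested. Psma5, an alpha ring gene, fell by 0.32 (log2) in NKG2A+ cells, by 0.51 in Ly49C/I+ cells of WT mice and by 0.65 in Ly49C/I+ cells of KO mice. With offsets for GC content and transcript length, Psma5 passed in neither WT comparison, and Psmb8 did not pass in NKG2A+ cells. The counts of Psma5 are uncertain in part, since 49.1% of its 50-base stretches also occur in other annotated genes. Of the 48 members tested, 9, 7 and 20 passed the threshold in these 3 comparisons (18.8%, 14.6% and 41.7%), against 15%, 9.3% and 16.3% of all genes tested, and all of the members called were lower. Called lower were 7.56%, 5.05% and 8.99% of all genes. In NKG2A+ cells the share of members called was thus near that of all genes called in either direction, and above that of all genes called lower. With the offsets, the share of members called lower was under that of all genes in both WT comparisons (7.36% and 4.97% of all genes). In KO mice it stayed above that of all genes (7.6%). The fold changes were small: the farthest, of Psma5 in KO mice, was a decrease of 36.5%.

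Between 13287163 and 18875033 reads were counted on genes per library (median 17273311). Of all reads in the files, 18.9% to 23.6% belonged to no single gene. Reads outside annotated genes moved with the groups, with medians of 3.32% in WT uneducated, 3.81% in NKG2A+ and 5.12% in WT Ly49C/I+ libraries (ranges 2.90% to 4.47%, 3.01% to 4.49% and 4.16% to 6.83%) and 3.33% and 4.12% in KO uneducated and Ly49C/I+ libraries (2.69% to 5.67% and 3.94% to 5.26%). Their part in the lower proteasome levels was not tested. Between 13982 and 17859 genes were detected, with WT NKG2A+ library 9 lowest and with WT uneducated library 5, WT Ly49C/I+ library 5 and KO Ly49C/I+ library 5 among the low ones. Klrc1, which encodes NKG2A, lay at 495 to 753 CPM in the NKG2A+ libraries and at 0.781 to 13.9 CPM in all others. Since the other groups of both genotypes were sorted as negative for NKG2A, this does not check the KO label. Klra9, which encodes Ly49I, lay at 452 to 1137 CPM in the Ly49C/I+ libraries and at 50.2 to 124 CPM elsewhere. Klra3, given for Ly49C, went the other way, with 24.6 to 106 CPM in Ly49C/I+ libraries and 65.8 to 222 CPM in the others. Ly49 genes are close copies of each other, and their counts are uncertain. All 12 NK cell markers, such as Ncr1 and Eomes, were present in each group, but their levels moved with the groups. Against uneducated cells, 6 were higher and 3 lower in NKG2A+ cells, where 15% of all genes were called. In WT Ly49C/I+ cells 2 were higher and 2 lower (9.3% of all genes called), and in KO Ly49C/I+ cells 6 and 2 (16.3%). Klrk1 and Tbx21 were higher and Gzmb and Prf1 lower in each of these comparisons.

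A total of 2 members fell below the test minimum, which was 5 CPM (read counts scaled to normalized library size) in 0.5 or more of the compared libraries. Psma8, an alpha subunit of the testis, had 141 reads over all libraries, from 8 libraries. Psmb11, the thymus-specific catalytic subunit, had 1 read. The other 48 members were tested in every comparison. Psmc3ip is a member by its symbol only, as it encodes a factor of meiotic recombination.

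Per kilobase of exon, Psmb2 had the highest mean level over the 37 libraries, 306 CPM per kb. Psme2 (279 CPM per kb) and Psme1 (269 CPM per kb) came next, followed by Psma6 (228 CPM per kb) and Psmb10 (204 CPM per kb). Psme4, which encodes the activator PA200, was the lowest tested member with 2.97 CPM per kb. Thus, the genes of the interferon-inducible activator were among the highest members in these cells. These lengths count all annotated exons, including those of retained-intron transcripts, and the order between genes is therefore approximate. The 50 members were spread over 16 chromosomes, with 10 on chromosome 11. Their longest transcripts were short, with a median of 1851 bases against 3354 bases over all genes compared (middle range 2184 to 4738 bases), while the median GC content was 49.8% against 49.4%.

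A set of 5 members was lower in all 3 comparisons with uneducated cells by the main test, but with offsets for GC content and transcript length none of them passed in all 3. The offsets kept Psmd2 in NKG2A+ cells and Psmb2 and Psmd7 in WT Ly49C/I+ cells. In KO Ly49C/I+ cells Psma4, Psma5 and Psmb2 passed in every alternative fit, with the offsets too. Over all alternative settings, leaving out single libraries included, the 5 members passed in 13 (Psmd7) to 21 (Psmd2) of 28 fits in NKG2A+ cells, in 10 (Psmd2) to 24 (Psmd7) of 24 in WT Ly49C/I+ cells and in 20 (Psmd7) to 22 of 22 in KO Ly49C/I+ cells. They were Psma4 (ENSMUSG00000032301, GRCm38 chromosome 9, 54950790 to 54958030, plus strand) and Psma5 (ENSMUSG00000068749, chromosome 3, 108256926 to 108279974, plus strand), both of the alpha ring, Psmb2 (ENSMUSG00000028837, chromosome 4, 126677630 to 126709714, plus strand) of the beta ring, Psmd2 (ENSMUSG00000006998, chromosome 16, 20651652 to 20663414, plus strand), a scaffold of the 19S base, and Psmd7 (ENSMUSG00000039067, chromosome 8, 107580381 to 107588464, minus strand) of the lid. For Psma5 and Psmd2, the start in the RefSeq promoter window of GRCm38.p6 is the gene start used here. Their 250 bases before the start are shown on the plus strand as examples from the 5 members, at chr3:108256676-108256925 and chr16:20651402-20651651. Whether the marked motifs bear on the levels was not tested. Capitals mark a match to the cAMP response element TGACGTNA, read on the minus strand, in Psma5 and a GC box GGGCGG in Psmd2, both beginning 52 bases before the start.
Psma5: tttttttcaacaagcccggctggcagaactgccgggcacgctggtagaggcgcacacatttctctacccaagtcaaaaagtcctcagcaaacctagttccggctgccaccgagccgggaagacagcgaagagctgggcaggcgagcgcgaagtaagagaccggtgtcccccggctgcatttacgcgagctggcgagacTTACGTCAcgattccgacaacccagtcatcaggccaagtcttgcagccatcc
Psmd2: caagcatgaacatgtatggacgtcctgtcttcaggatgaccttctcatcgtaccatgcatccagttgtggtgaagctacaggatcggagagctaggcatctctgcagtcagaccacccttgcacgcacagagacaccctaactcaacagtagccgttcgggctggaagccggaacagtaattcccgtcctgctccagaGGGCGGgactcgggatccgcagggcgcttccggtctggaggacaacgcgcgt

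A promoter window (250 bases before to 50 after the start) was given for 42 of the 50 members. Motifs were chosen after these windows had been seen and were searched on both strands, so their shares are a description. The GC box GGGCGG was found in 23 of the 42 members (54.8%) and in 38.2% of all 27025 genes with a window. The palindromic motif of the respiratory factor NRF-1 was found in 7 members (16.7%) and 5.19% of all genes. TGACNNNGC, the antioxidant response element, was found in 6 members (14.3%), namely Psmb5, Psmb6, Psmc6, Psmd9, Psmd12 and Psme4, and in 14% of all genes. Its strict form TGACTCAGC was found in 0 members and 0.503% of all genes. The interferon regulatory factor motif was found in 5 members (11.9%), namely Psmb3, Psmd4, Psmd9, Psme1 and Psmg4, and in 3.99% of all genes. TTCNNNGAA, the STAT pattern, was found in Psmb8, Psmd2 and Psmg1 (7.14%) and in 9.55% of all genes. CCAAT was found in 15 members (35.7%) and 41.1% of all genes, TGACGTNA in Psma1 and Psma5 (4.76%) and 3.36%, and the YY1 motif in Psmb6 and 0.755%.

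NKG2A+ and uneducated cells of WT mice were compared to ask how education through NKG2A goes with the proteasome genes. Of the 48 members, 9 were lower and 0 higher (18.8% called). Over all 9339 genes tested, 15% were called and 7.56% were called lower. Values under 0 were found for 43 members, against 48.6% of all genes, and the median log2 fold change was -0.12 for the members and 0.01 for all genes. Lower were 2 of 7 alpha ring genes, 2 of 7 constitutive beta ring genes, 2 of 9 base genes, 2 of 8 lid genes and 1 of 3 immunoproteasome genes. None of the 5 activator genes or of the 7 assembly chaperones passed. In bulk samples, fewer cells of a type and less RNA per cell cannot be told apart.

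Psmd6, a lid subunit, had the largest fall among members. Its level was 154 to 214 CPM in uneducated libraries (median 169) and 101 to 166 CPM in NKG2A+ libraries (median 139). The ranges overlapped, but all 9 NKG2A+ libraries lay below the uneducated median. The log2 fold change was -0.37 (SE 0.0935, adjusted p = 0.0101). Psmb5, the constitutive beta5 catalytic subunit, had 76.4 to 107 CPM in uneducated (median 90.6) and 54.8 to 78.6 CPM in NKG2A+ libraries (median 75.4). Again all 9 NKG2A+ libraries lay below the uneducated median, with a log2 fold change of -0.35 (SE 0.0943, adjusted p = 0.0135). Psma5 had 106 to 164 CPM in uneducated (median 126) and 87.6 to 122 CPM in NKG2A+ libraries (median 99.9), with a log2 fold change of -0.32 (SE 0.101, adjusted p = 0.0369). No member separated the groups fully, against 0.835% of all genes that were lower without overlap.

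The other members called were Psmc1 (-0.29), an ATPase of the base, Psmb2 (-0.28), Psmd2 (-0.28), Psma4 (-0.27), Psmd7 (-0.26) and Psmb8 (-0.22), as log2 fold changes with adjusted p between 0.00941 and 0.0427. Psmb8 encodes the beta5i catalytic subunit of the immunoproteasome (ENSMUSG00000024338, chromosome 17, 34197721 to 34201454, plus strand). It had 494 to 637 CPM in uneducated (median 575) and 428 to 529 CPM in NKG2A+ libraries (median 504). The other catalytic genes did not pass: the log2 fold change was -0.19 for Psmb6, -0.10 for Psmb7, -0.04 for Psmb10 and -0.03 for Psmb9. Psme2 stood at -0.11 and Psme1 at 0.05. With offsets for GC content and transcript length in the fit, 3 members were lower (Psmd6, Psmd2 and Psmd11) while 7.36% of all genes were, and without a filter on low counts 3 were (Psmd6, Psmb5 and Psmc1). Leaving out uneducated library 1, 3 or 4 or NKG2A+ library 5 gave 4 calls, and leaving out NKG2A+ library 6 or 7 gave 5.

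**Figure D1:**
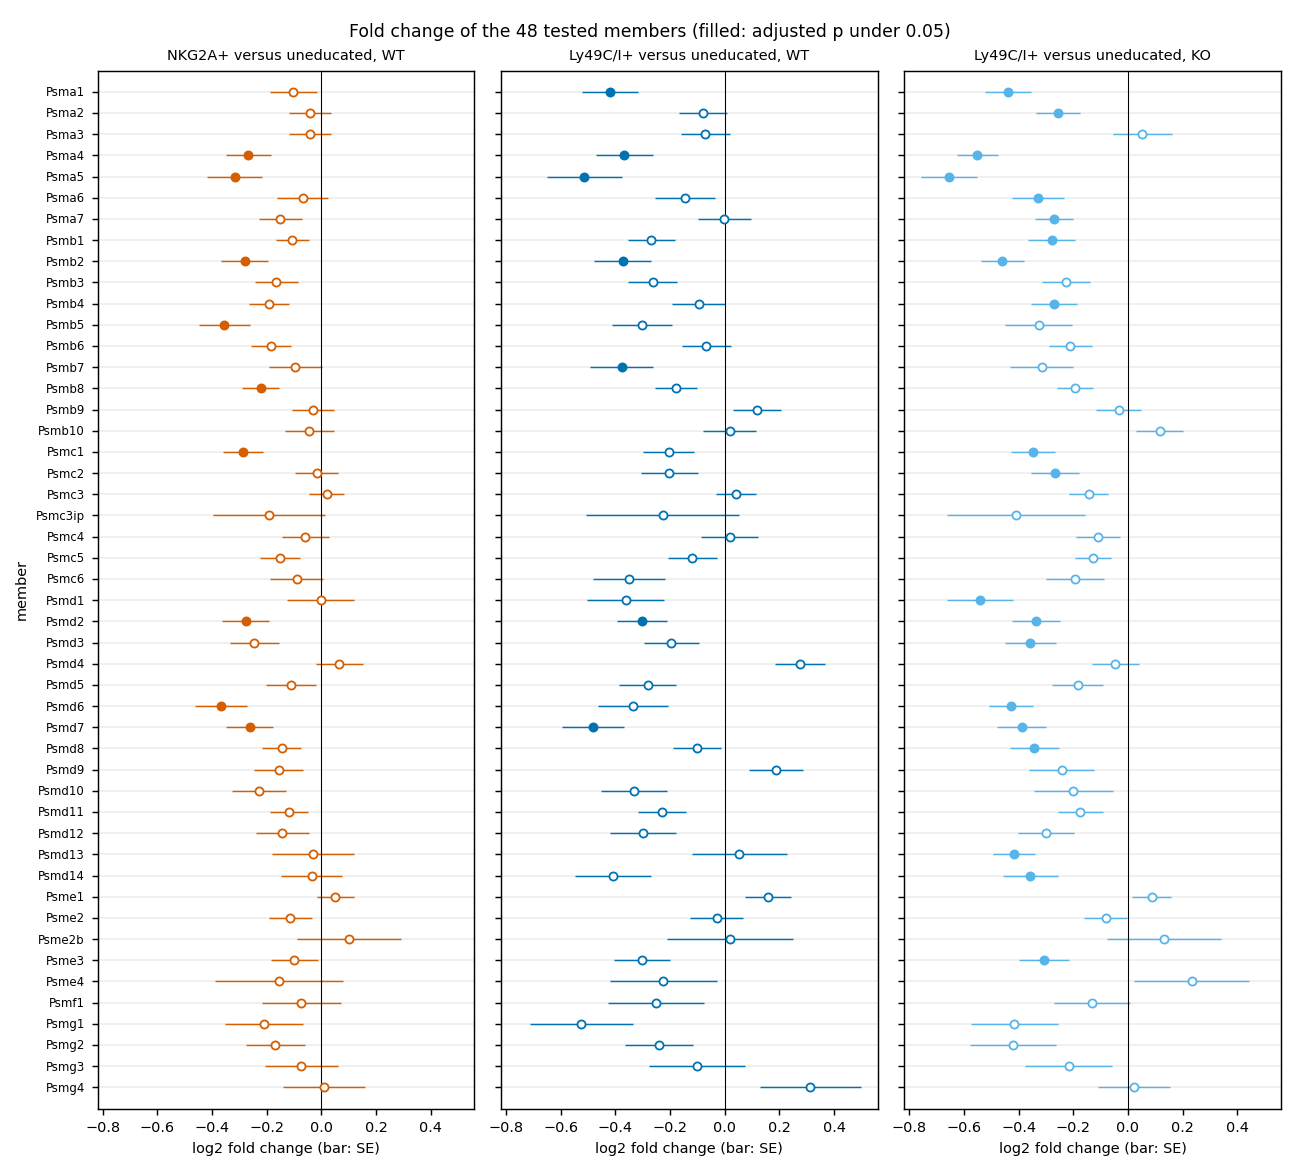
Log2 fold change (x axis, bars show the SE) of the 48 tested members (y axis) in NKG2A+ and Ly49C/I+ cells of WT mice and in Ly49C/I+ cells of KO mice, each against uneducated cells of the same genotype. Filled points have an adjusted p under 0.05 and number 9, 7 and 20, all left of 0.

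In Ly49C/I+ cells of WT mice, 7 of the 48 members were lower than in uneducated cells and 0 were higher (14.6% called), whereas 9.3% of all 9292 genes were called and 5.05% were called lower. Below 0 were 38 members, against 50% of all genes, and the median log2 fold change was -0.21 for the members and -0.00013 for all genes. The calls comprised 3 of 7 alpha ring genes, 2 of 7 constitutive beta ring genes, 1 of 9 base genes and 1 of 8 lid genes, and 0 of the immunoproteasome, activator and chaperone genes. The same uneducated libraries served as controls for both WT comparisons, so these are not independent.

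Psma5 had 60.4 to 105 CPM in the Ly49C/I+ libraries (median 100.2), below each of the uneducated libraries (106 to 164 CPM, median 126). It was the only member whose groups did not overlap, compared with 1.4% of all genes that were lower without overlap. Its log2 fold change was -0.51 (SE 0.138, adjusted p = 0.0262). Psmd7, a lid subunit, had 96.4 to 170 CPM in Ly49C/I+ (median 131) and 158 to 218 CPM in uneducated libraries (median 191). All 6 Ly49C/I+ libraries lay below the uneducated median, with a log2 fold change of -0.48 (SE 0.112, adjusted p = 0.0129). Psma1, of the alpha ring, had 211 to 304 CPM in Ly49C/I+ (median 267) and 303 to 406 CPM in uneducated libraries (median 347), so that the ranges just touched. The log2 fold change was -0.42 (SE 0.102, adjusted p = 0.0167).

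Psmb7, which encodes the constitutive beta2 catalytic subunit, fell by 0.38, Psmb2 by 0.37, Psma4 by 0.37 and Psmd2 by 0.30 on the log2 scale. Psmb5 had a log2 fold change of -0.30 without passing (adjusted p = 0.0882), and Psmb8 had -0.18 (adjusted p = 0.159). Of the remaining always examined genes, Psmb6 stood at -0.07, Psme2 at -0.03, Psmb10 at 0.02, Psmb9 at 0.12 and Psme1 at 0.16, and none passed. The offsets for GC content and length left Psmb2 and Psmd7 lower and made Psmd4, the ubiquitin receptor of the base, higher, with 4.97% of all genes lower. DESeq2 called 11 lower and 1 higher, a fit with all groups 18 lower and 1 higher, and a fit without a filter on low counts 2. The count fell to 1 without Ly49C/I+ library 7, to 2 without uneducated library 3 or Ly49C/I+ library 5, to 3 without uneducated library 1 or 4 or Ly49C/I+ library 4, and to 4 without uneducated library 8 or Ly49C/I+ library 8, and it rose to 12 without uneducated library 5. In the fits without uneducated library 4 or 5, 1 of the members called was higher.

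**Figure D2:**
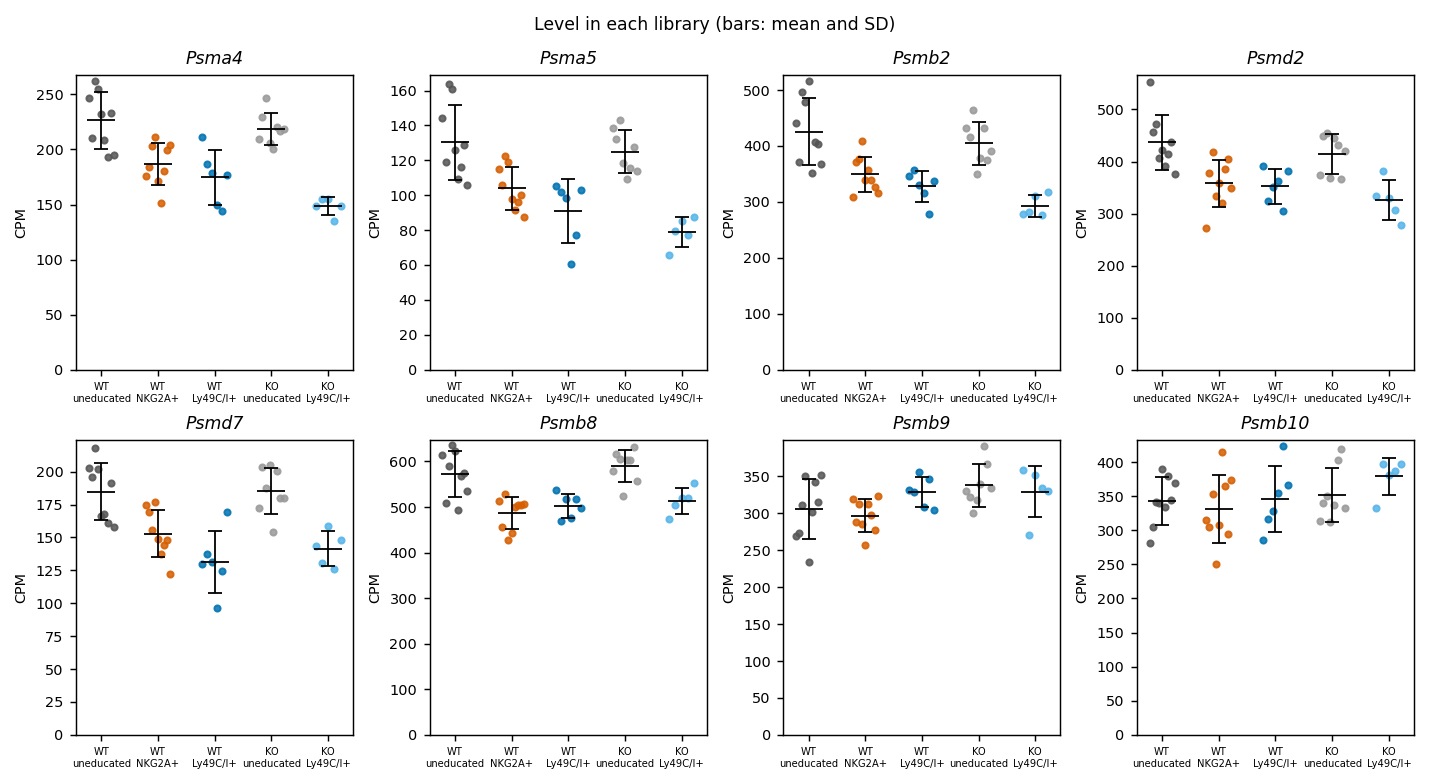
CPM (y axis, from 0) of 8 members in each library of the 5 groups, with bars for the mean and SD. Psma4, Psma5, Psmb2, Psmd2 and Psmd7 passed the main test in each comparison with uneducated cells (with GC and length offsets none of the 5 passed in all 3), while Psmb8 passed in NKG2A+ cells and Psmb9 and Psmb10 in none.

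A like contrast was made in KO mice with their own control libraries. Without NKG2A, the sort cannot remove cells by this receptor in KO mice. Both KO groups may therefore hold cells that would carry NKG2A in WT mice, and they are not fully matched to the WT groups. In Ly49C/I+ compared with uneducated cells, 20 of 48 members were lower and 0 higher (41.7% called), while 16.3% of all 9299 genes were called and 8.99% were called lower. The values of 42 members lay below 0, against 47.6% of all genes, and the median log2 fold change was -0.27 for the members and 0.02 for all genes. Lower were 6 of 7 alpha ring genes, 3 of 7 constitutive beta ring genes, 4 of 9 base genes, 6 of 8 lid genes and 1 of 5 activators, Psme3. None of the 3 immunoproteasome genes and none of the chaperones passed.

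For Psma5, KO Ly49C/I+ libraries 4 to 8 had 65.8, 79.4, 85.4, 77.0 and 87.6 CPM. All lay below the KO uneducated libraries, at 109 to 143 CPM (median 123), and the log2 fold change was -0.65 (SE 0.101, adjusted p = 0.000642). Psma4 had 149, 155, 155, 135 and 149 CPM in these libraries, against 200.4 to 247 CPM in uneducated ones (median 218). The groups were fully apart, with a log2 fold change of -0.55 (SE 0.0758, adjusted p = 0.000329). Psmd1, the larger scaffold of the base, had 175, 133, 143, 137 and 178 CPM against 178 to 275 CPM (median 218), so that only the edges of the groups met. Its log2 fold change was -0.54 (SE 0.121, adjusted p = 0.00649).

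The groups did not overlap for 7 members (Psma1, Psma4, Psma5, Psmb2, Psmc1, Psmd6 and Psmd13), where 4.12% of all genes were lower without overlap. Psmb2, for instance, had 279, 282, 311, 276 and 318 CPM in KO Ly49C/I+ libraries and 349 to 465 CPM in uneducated ones (median 403), a fall of 0.46 (log2). Psmd2 had 334, 382, 330.2, 307 and 279 CPM against 367 to 455 CPM (median 426), and Psmd7 had 144, 130.4, 159, 126 and 148 CPM against 154 to 205 CPM (median 184). In both, 1 KO Ly49C/I+ library reached into the uneducated range.

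The log2 fold changes of the other alpha ring genes called were -0.44 for Psma1, -0.33 for Psma6, -0.27 for Psma7 and -0.25 for Psma2. Of the beta ring, Psmb1 fell by 0.28 and Psmb4 by 0.27. Of the lid, Psmd6 fell by 0.43, Psmd13 by 0.42, Psmd7 by 0.39, Psmd3 by 0.36, Psmd14, the deubiquitinase, by 0.36 and Psmd8 by 0.34. Of the base, the ATPase genes Psmc1 and Psmc2 fell by 0.35 and 0.27, and Psmd2 by 0.34. Psme3, which encodes the nuclear activator PA28 gamma, fell by 0.31 (log2). The adjusted p of the 20 members called ranged from 0.000329 to 0.0446.

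Psmb5, Psmb6, Psmb7 and Psmb8 stayed just outside the threshold in KO mice. Psmb5 had a log2 fold change of -0.33 (adjusted p = 0.0731), Psmb7 of -0.32 (adjusted p = 0.0717), Psmb6 of -0.21 (adjusted p = 0.0717) and Psmb8 of -0.19 (adjusted p = 0.0526). Psme2 stood at -0.08, Psmb9 at -0.03, Psme1 at 0.09 and Psmb10 at 0.12 (adjusted p between 0.380 and 0.820). With the offsets for GC content and length 12 members were lower while 7.6% of all genes were, and without a filter on low counts 13 were. With all groups in the fit 15 members were lower in KO mice, fewer than the 18 in WT mice. Leaving out any single library gave 14 to 27 calls. A replicate block gave fewer calls than any of these fits.

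**Figure D3:**
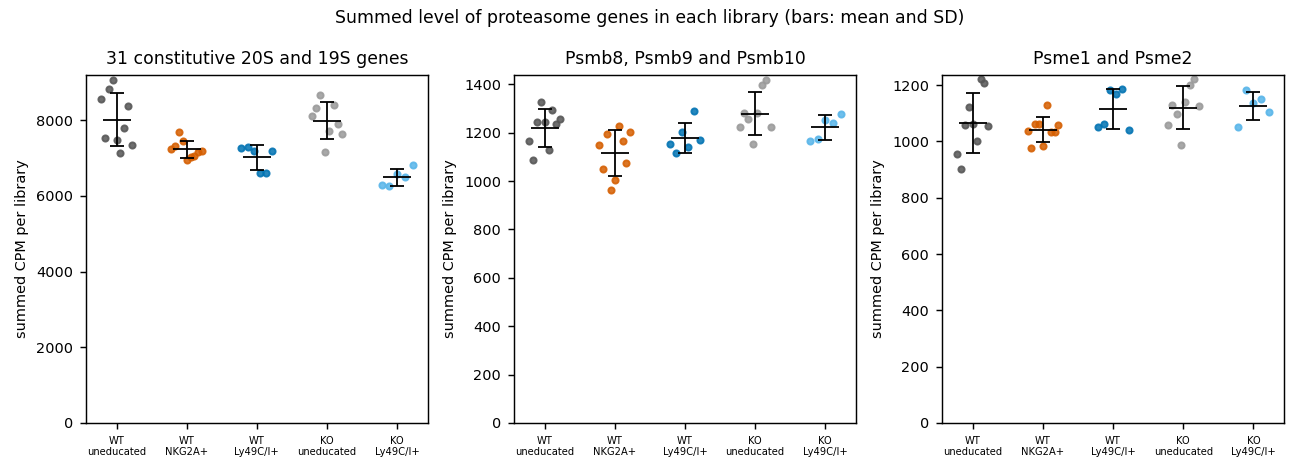
Summed CPM (y axis, from 0) of the 31 constitutive 20S and 19S genes, of Psmb8, Psmb9 and Psmb10, and of Psme1 and Psme2 in each library, with bars for the mean and SD. The constitutive sum lies lower in the educated groups and does not overlap between KO Ly49C/I+ and KO uneducated libraries, while the other sums overlap between all groups.

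Summed over the 31 constitutive 20S and 19S genes, the level was 8011 ± 705 CPM (SD, n = 9) in WT uneducated, 7230 ± 233 CPM (n = 9) in NKG2A+ and 7018 ± 321 CPM (n = 6) in WT Ly49C/I+ libraries. In KO mice the sum was 7988 ± 485 CPM (n = 8) in uneducated and 6489 ± 230 CPM (n = 5) in Ly49C/I+ libraries, which ranged from 7165 to 8661 and from 6262 to 6822 CPM. These KO groups did not overlap, whereas the WT groups did. The sum of Psmb8, Psmb9 and Psmb10 was 1220 ± 77.8, 1115 ± 94.2 and 1178 ± 61.4 CPM in WT uneducated, NKG2A+ and Ly49C/I+ libraries and 1279 ± 89.1 and 1222 ± 50.6 CPM in KO uneducated and Ly49C/I+ libraries (SD, same n). The sum of Psme1 and Psme2 was 1066 ± 106, 1042 ± 45.4, 1115 ± 70.4, 1120 ± 75.04 and 1125 ± 50.4 CPM in the same order. Neither sum separated any of these groups. The sums are descriptions and were not tested.

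The immunoproteasome genes therefore were examined gene by gene. Psmb9 (beta1i, ENSMUSG00000096727, chromosome 17, 34181987 to 34187764, minus strand) had 234 to 353 CPM in WT uneducated (median 312), 257 to 323 in NKG2A+ (median 297) and 305 to 356 in WT Ly49C/I+ libraries (median 330.3). In KO mice it had 301 to 392 CPM in uneducated libraries (median 332) and 358, 271, 351, 335 and 330.3 CPM in Ly49C/I+ libraries. Its range overlapped between all groups. Psmb10 (beta2i, ENSMUSG00000031897, chromosome 8, 105935735 to 105938444, minus strand) had 281 to 389 CPM in WT uneducated (median 342), 251 to 414 in NKG2A+ (median 316) and 286 to 424 in WT Ly49C/I+ libraries (median 341). In KO mice it had 312 to 419 CPM in uneducated libraries (median 339) and 332, 397, 380.4, 388 and 397 CPM in Ly49C/I+ libraries. As with Psmb9, the ranges overlapped throughout. Psmb8 had 470 to 537 CPM in WT Ly49C/I+ (median 508), 524 to 632 in KO uneducated (median 603) and 474, 505, 520, 519 and 552 CPM in KO Ly49C/I+ libraries. Here, too, the ranges overlapped between the groups.

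Each immunoproteasome gene was set against the constitutive gene whose product it replaces, as a ratio of levels per length within a library. The median ratio of Psmb8 to Psmb5 was 1.70 in WT uneducated, 1.83 in NKG2A+ and 1.87 in WT Ly49C/I+ libraries, and 1.84 in KO uneducated and 1.92 in KO Ly49C/I+ libraries. The ratio of Psmb9 to Psmb6 was 0.449, 0.481 and 0.504 in WT and 0.498 and 0.577 in KO libraries in the same order. The ratio of Psmb10 to Psmb7 was 7.34, 7.11 and 8.64 in WT and 7.82 and 10.7 in KO libraries. The ranges overlapped between the groups in all 3 pairs, and no test was made. Of 50-base stretches of Psmb5, 54.1% also occur in other annotated genes, so its count and the first ratio are uncertain.

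**Figure D4:**
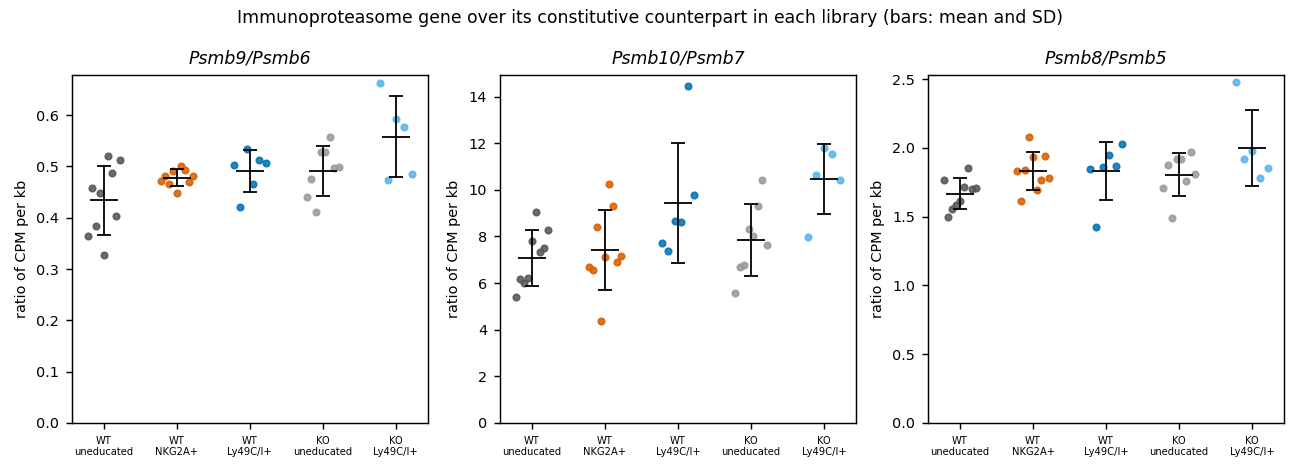
Ratio of CPM per kb (y axis, from 0) of Psmb9 to Psmb6, Psmb10 to Psmb7 and Psmb8 to Psmb5 in each library of the 5 groups, with bars for the mean and SD. The highest median of each pair is that of the KO Ly49C/I+ libraries, at 0.577, 10.7 and 1.92, and the ranges overlap between the groups.

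NKG2A+ and Ly49C/I+ cells of WT mice were also compared directly. By edgeR 0 of 48 members passed the threshold, while 2.73% of all 9308 genes did. An unadjusted p under 0.05 was found for 10 members, and DESeq2 called 3, Psma1 and Psmd14 higher and Psmd9 lower in NKG2A+ cells. The median log2 fold change was 0.02. Psmb7, at 78.6 to 116 CPM in NKG2A+ (median 86.8) and 58.9 to 86.1 CPM in Ly49C/I+ libraries (median 75.6), had a log2 fold change of 0.27 (95% interval 0.05 to 0.49, adjusted p = 0.195). Psmb9 had -0.16 (95% interval -0.29 to -0.03, adjusted p = 0.191). The log2 fold change was -0.13 for Psmb6, -0.12 for Psme1, -0.10 for Psme2, -0.07 for Psmb10 and Psmb5 and -0.06 for Psmb8. Psmd14 was the only member whose groups did not overlap, at 198.6 to 274 CPM in NKG2A+ and 132 to 197.9 CPM in Ly49C/I+ libraries. Its log2 fold change was 0.36, and 0.591% of all genes were higher without overlap. A difference between the educated populations was thus not shown for any member by the main test.

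Genotype was compared within each population as sorted, although the KO groups may hold cells that the sort removes as NKG2A+ in WT mice. In uneducated cells 0 of 48 members and 0% of all 9288 genes passed between KO and WT mice by edgeR, 1 member (Psmd4) had an unadjusted p under 0.05, and DESeq2 called 0 members. The 8 genes examined in each comparison had log2 fold changes from -0.11 for Psmb7, -0.08 for Psmb5 and -0.05 for Psmb6 to 0.02 for Psmb10, 0.03 for Psme2, 0.04 for Psmb8, 0.09 for Psme1 and 0.14 for Psmb9. In Ly49C/I+ cells 0 members and 0% of all 9344 genes passed by edgeR, 7 members had an unadjusted p under 0.05, and DESeq2 called Psma7 lower. Values below 0 were found for 36 members, against 49.4% of all genes, and the median log2 fold change was -0.09 for the members and 0.0032 for all genes. Psma6 and Psma7 were lower in KO mice without overlap of the groups, as were 0.706% of all genes. The log2 fold change was -0.19 for Psmb6, -0.10 for Psmb5, -0.05 for Psmb7, -0.02 for Psme2, -0.01 for Psmb9, 0.02 for Psmb8 and Psme1 and 0.12 for Psmb10. The 95% interval of Psmb8 was -0.11 to 0.16.

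Whether the Ly49C/I+ effect differed between genotypes was tested as an interaction, with the same limit on the KO groups. By edgeR 0 of 48 members and 0% of all 9322 genes passed, and 6 members had an unadjusted p under 0.05, the lowest for Psmd9 (log2 difference -0.44, adjusted p = 0.998). DESeq2 called 0 members. The difference of the log2 fold changes was -0.16 for Psmb9 and Psmb6, -0.08 for Psme1, -0.06 for Psme2, -0.03 for Psmb5 and Psmb8, 0.05 for Psmb7 and 0.09 for Psmb10. The larger number of calls in KO than in WT mice was therefore not matched by a difference in effect that passed for any member. Lower in both genotypes were 6 members (Psma1, Psma4, Psma5, Psmb2, Psmd2 and Psmd7), which is 85.7% of the 7 called in WT and 30% of the 20 called in KO mice. A further 14 passed in KO and 1, Psmb7, in WT mice, and 27 in neither.

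**Figure D5:**
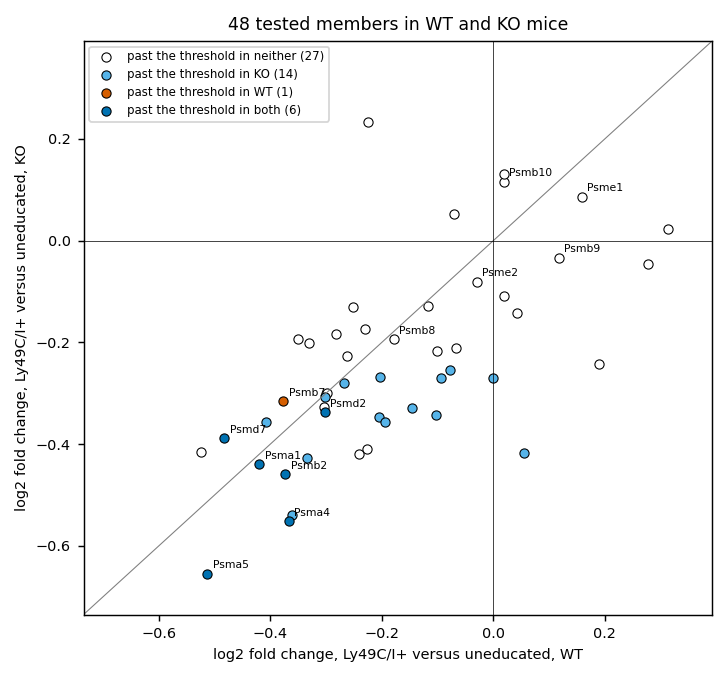
Log2 fold change of Ly49C/I+ against uneducated cells for the 48 tested members in WT (x axis) and KO mice (y axis), with colour for where the threshold was passed and a line of equal values. Both values are below 0 for 36 members, and 34 members lie below the line.

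Across the 3 comparisons with uneducated cells, 23 members passed at least 1 time and 36 of 48 had all 3 values below 0. The alpha ring gene Psma4 had 193 to 262 CPM in WT uneducated (median 233), 152 to 212 in NKG2A+ (median 184) and 144 to 212 in WT Ly49C/I+ libraries (median 178). Psmb2 had 352 to 516, 309 to 408 and 279 to 357 CPM in these groups (medians 406, 340 and 333), and Psmd2 had 376 to 553, 273 to 418 and 305 to 391 CPM (medians 423, 360 and 357). The WT groups overlapped for each of them. Counts of Psma5 and Psmd2 are uncertain in part, since 49.1% and 17.8% of their 50-base stretches also occur in pseudogenes or other genes. For Psma4 the share was 11.6%, and Psme2 shared 28.3% with Psme2b.

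Among 28 tested genes that work with the proteasome (ubiquitin genes, shuttles and assembly and transcription factors), Pomp was lower in all 3 comparisons by the main test. The alternative settings were examined for the members only, and not for the genes of this or the other lists. Pomp encodes the maturation chaperone of the 20S core, and it had 291 to 432 CPM in WT uneducated (median 374), 272 to 339 in NKG2A+ (median 296) and 235 to 295 in WT Ly49C/I+ libraries (median 281). Its log2 fold change was -0.26 in NKG2A+ (adjusted p = 0.0225), -0.41 in WT Ly49C/I+ (adjusted p = 0.0131) and -0.43 in KO Ly49C/I+ cells (adjusted p = 0.0036). Vcp, the segregase that draws ubiquitylated proteins from membranes and complexes, was lower in Ly49C/I+ cells of WT (-0.41) and KO mice (-0.58, adjusted p = 0.000329). In NKG2A+ cells Rps27a, a ubiquitin and ribosomal fusion gene, was lower (-0.24). Higher were Nfe2l2, which encodes the stress factor NRF2, in NKG2A+ (0.52) and WT Ly49C/I+ cells (0.64), Zfand5 in NKG2A+ cells (0.40), and the polyubiquitin gene Ubb in NKG2A+ (0.24) and KO Ly49C/I+ cells (0.25). Of the 28 partners, 2, 2 and 2 were lower and 3, 1 and 2 higher in NKG2A+, WT Ly49C/I+ and KO Ly49C/I+ cells, not all of them named here. In all genes the shares were 7.56%, 5.05% and 8.99% lower and 7.47%, 4.25% and 7.34% higher. By edgeR 0 partners passed in the other comparisons.

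Genes of class I antigen processing, of which 14 were tested, passed in both directions by the main test. H2-K1 and H2-D1, which encode class I heavy chains, and the regulators Irf1 and Nlrc5 were higher in all 3 comparisons with uneducated cells. For Nlrc5, the transactivator of class I genes, the log2 fold change was 0.69 in NKG2A+, 1.19 in WT Ly49C/I+ and 1.06 in KO Ly49C/I+ cells. For H2-K1 it was 0.33, 0.40 and 0.34, and B2m passed in KO mice (0.17). Calr, a chaperone of the endoplasmic reticulum that loads class I molecules, was lower in all 3 (-0.61, -0.76 and -0.76), as was Pdia3 (-0.43, -0.56 and -0.53), and Canx was lower in Ly49C/I+ cells of WT (-0.54) and KO mice (-0.43). Of the 14 genes, 5, 5 and 6 were higher, not all of them named here, and 2, 3 and 3 lower, beside the same shares of all genes.

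Markers of other cells moved with the same groups. The summed level of 10 myeloid markers was 192 to 575 CPM in WT uneducated, 27.6 to 484 in NKG2A+ and 18.0 to 550 in WT Ly49C/I+ libraries, and 108 to 449 in KO uneducated and 26.1 to 202 CPM in KO Ly49C/I+ libraries. H2-Ab1 was lower in all 3 comparisons (-1.62, -1.68 and -2.59) and H2-Aa in KO mice (-2.06), the only myeloid markers that passed among the 5, 4 and 4 tested. Others lay the other way in WT mice: the median of Lyz2 was 18.1 CPM in uneducated, 43.4 in NKG2A+ and 31.1 in Ly49C/I+ libraries, and that of C1qb 3.70, 7.55 and 9.83 CPM. The sum of 7 epithelial and trophoblast markers was 203 to 314, 68.1 to 194, 95.0 to 237, 140 to 270 and 134 to 275 CPM in the same order, and 2 of them could be tested. Epcam was lower in all 3 comparisons (-1.28, -1.11 and -1.31) and Cdh1 in NKG2A+ cells (-0.71), while in KO mice Cdh1 had a median of 154 CPM in uneducated and 159 CPM in Ly49C/I+ libraries. Krt8 and Krt18 had medians of at most 3.36 CPM in each group. The sum of 5 erythroid genes was 180 to 1256, 668 to 2535, 766 to 2494, 213 to 1117 and 399 to 1595 CPM. Of these, only Hbb-bs and Hbb-bt passed, both higher in NKG2A+ than in uneducated cells. Stromal markers summed to at most 890 CPM in NKG2A+ libraries (median 8.21) and at most 96.2 CPM in the uneducated groups. In NKG2A+ libraries Prl8a2 alone reached 881 CPM, and the next stromal marker, Col1a2, at most 5.84 CPM. The 8 T cell markers summed to 131 to 294 CPM, with 3 of them at a median of 0 in each group. Against uneducated cells, Cd3d and Cd3e were higher in NKG2A+ cells, and Lef1 was lower in Ly49C/I+ cells of both genotypes. The 5 B cell and 5 endothelial markers summed to at most 6.13 and 4.94 CPM. The 8 proliferation genes summed to 909 to 1812 CPM over all libraries. Among them, Top2a was higher in NKG2A+ cells and Birc5 lower in Ly49C/I+ cells of KO mice, each against uneducated cells. The part of these cells in the lower proteasome levels was not tested.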

How the data were processed

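Total RNA of sorted uNK cells was amplified as full-length cDNA with SMART-Seq v4 and made into Nextera XT libraries without molecular identifiers. The authors checked reads with FastQC 0.11.4, trimmed them with Trim Galore 0.5.0, mapped them with STAR 2.7.1 to GRCm38 and deposited raw read counts for 53700 Ensembl genes per library. The counting program and its strand setting were not given in the sources used here. Their own tests used CQN and edgeR 3.26.5 in R 3.6.1 and were not used.

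Symbols came from GENCODE annotation for 52093 genes (97%). Each file's 5 summary lines name no gene and were left out. No per-sample column was left unmapped. A gene was tested if 0.5 or more of the compared libraries held 5 CPM or more, with only the groups of that comparison in the fit, using edgeR 4.0.16 in R 4.3.3 (TMM, quasi-likelihood test, Benjamini-Hochberg adjustment over all genes tested, threshold 0.05). The script was tested on simulated data. Depth of at least 13287163 reads per library limits the precision by counting error, which the reads of amplified cDNA do not cover in full. Alternatives were DESeq2 1.42.0, other scaling and filters, splines of GC content and length with 5 degrees of freedom as offsets, a replicate block, all groups in the fit and 95 fits without 1 library. Members and lists were chosen with earlier results of these data known. Named with values were the catalytic subunits, Psme1 and Psme2 in each comparison, all members past the threshold, with full values for the 3 largest falls, the highest and lowest member, members under the filter, and partner or antigen processing genes past the threshold, of which some are not reported here. Psmd4, Psmd9, Psmd11, Psmd14 and Psma7, members with a motif, and single cell type markers, were named outside this rule after their values were seen.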

Additional observations from a re-analysis of the deposited data

Results flagged for a closer look

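Of 175 sets of values (the members named by value, the summed levels and the ratios, each within a group of 4 to 10 libraries), 10 held a library whose gap to its nearest neighbour was large against the range of its group, or 5.71%. Chance gives about 1 in 20. WT uneducated library 5 had 67.8 CPM for Psmd13, a lid subunit, where the next lowest library had 173 CPM. WT uneducated library 4 had the highest Psmc2 level of its group, 269.9 CPM against 228 CPM. WT NKG2A+ library 9 had 136 CPM for Psmd13, with the next library at 174 CPM.

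In WT Ly49C/I+ cells, library 5 was lowest for Psmb1 with 296 CPM against 392 CPM, and library 4 was highest for Psme2 with 566 CPM against 486 CPM. The ratio of Psmb10 to Psmb7 was 14.4 in library 7 with the next at 9.79, and the ratio of Psmb8 to Psmb5 was 1.42 in library 2 with the next at 1.85. KO Ly49C/I+ library 4 was lowest for Psmb10 with 332 CPM against 380.4 CPM and for Psme1 with 585 CPM against 639 CPM, and had the highest ratio of Psmb8 to Psmb5, 2.48 against 1.98.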

How the results depend on the processing

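No setting called a member higher for NKG2A+ or KO Ly49C/I+ against uneducated cells. In WT Ly49C/I+ cells 1 member was higher with DESeq2, with the offsets, with all groups in the fit and in 2 fits without 1 library. For NKG2A+ against uneducated cells the 9 calls became 3 without a filter, 3 with GC and length offsets and 4 to 12 without 1 library. For Ly49C/I+ against uneducated cells in WT mice the 7 calls became 12 with DESeq2, 2 without a filter, 3 with the offsets, 19 with all groups in the fit and 1 to 12 without 1 library. For NKG2A+ against Ly49C/I+ cells the 0 calls became 3 with DESeq2, 1 with the likelihood ratio test, 1 with all groups in the fit and 0 to 1 without 1 library. In KO mice the 20 calls became 13 without a filter, 12 with the offsets and 14 to 27 without 1 library. Between KO and WT Ly49C/I+ cells DESeq2 gave 1 in place of 0. The cause of these shifts was not tested, also for the offsets, which take out what goes with length and GC content. Other scaling (RLE) and a filter of 1 CPM left all counts within 1.5 times.

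Replicate numbers are shared between groups, but were not taken to pair the libraries, since the correlation of same-numbered libraries over 6939 genes was not over 0.1 in every pair. It was over 0.1 in 6 of 9 pairs of WT uneducated and NKG2A+ libraries (lowest -0.00444), 5 of 6 of WT uneducated and Ly49C/I+ (lowest 0.0835), 4 of 6 of NKG2A+ and WT Ly49C/I+ (lowest 0.0553) and 2 of 5 of KO uneducated and Ly49C/I+ libraries (lowest 0.0485). In WT, 6 of 6 uneducated and 5 of 6 Ly49C/I+ libraries correlated best with their own number in the other group. So did 5 of 6 NKG2A+ and 4 of 6 WT Ly49C/I+ libraries, and 4 of 9 WT uneducated and 5 of 9 NKG2A+ libraries. In KO mice it was 3 of 5 in each group. These are hints from the data and not from the design. The rule of 0.1 in every pair cannot exclude pairing, and the main fits treat the libraries as independent. Labels leave the numbers in doubt, since some WT Ly49C/I+ titles carry another number than the description and WT uneducated library 5 shares its description with a second library. A replicate block gave 9 calls (NKG2A+) and 8 (WT Ly49C/I+) against uneducated cells, 11 in KO mice and 2 between the educated WT populations. The block with the offsets, added after the data were seen, gave 3, 5, 6 and 0.

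Log2 values close to 0 changed sign, none of them past the threshold. With the offsets these were, for NKG2A+ against uneducated cells, Psmb10 (0.0611) and Psme2 (0.0351), for Ly49C/I+ against uneducated cells, Psmb6 (0.0402) and Psme2 (0.0625) in WT and Psme2 (0.0668) in KO mice, for NKG2A+ against Ly49C/I+ cells, Psmb10 (0.0199) and Psmb5 (0.0517), for KO against WT mice, Psmb6 (0.0113) in uneducated and Psme2 (0.0962) in Ly49C/I+ cells, and for the interaction Psmb5 (0.0381), Psmb7 (-0.0186) and Psmb8 (0.0269). With the replicate block they were Psmb7 (0.0561) and Psme1 (-0.000569) between KO and WT Ly49C/I+ cells and Psmb5 (0.066), Psmb8 (0.023) and Psme2 (0.0305) in the interaction. With block and offsets they were Psmb10 (0.0569) and Psme2 (0.0382) for NKG2A+, Psmb6 (0.0575) and Psme2 (0.0395) for WT Ly49C/I+ and Psme2 (0.0889) for KO Ly49C/I+ against uneducated cells, Psmb5 (0.0438) for NKG2A+ against Ly49C/I+ cells, Psmb6 (0.0193) for KO against WT uneducated cells, Psmb5 (0.0918) and Psme2 (0.0734) for KO against WT Ly49C/I+ cells, and Psmb5 (0.121), Psmb8 (0.0664) and Psme2 (0.0378) in the interaction. Without number 5 in both groups, Psmb10 was 0.00432 for NKG2A+ against uneducated cells.

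Without 1 library at a time, Psmb10 ranged from -0.0884 to 0.000469 for NKG2A+ against uneducated cells, from -0.0318 to 0.0766 for WT Ly49C/I+ against uneducated cells and from -0.0155 to 0.0531 for KO against WT uneducated cells. Psme2 ranged from -0.0716 to 0.0102 for WT Ly49C/I+ against uneducated cells, from -0.00551 to 0.0641 for KO against WT uneducated cells and from -0.0581 to 0.0126 for KO against WT Ly49C/I+ cells. Psmb9 ranged from -0.0652 to 0.0262 for KO Ly49C/I+ against uneducated cells and from -0.0453 to 0.0451 between KO and WT Ly49C/I+ cells, where Psme1 ranged from -0.0155 to 0.0542 and Psmb8 from -0.0143 to 0.0482. In the interaction Psmb5 ranged from -0.0903 to 0.0616 and Psmb8 from -0.0582 to 0.00352.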
